A study of Mus musculus with 15 samples.

Results

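The 10 genes of the NRF2 antioxidant response and of iron storage described here were measured in sorted mouse bone marrow cells: Nfe2l2, Hmox1, Nqo1, Gclc, Gclm, Txnrd1, Srxn1, Prdx1, Fth1 and Ftl1. They were fixed by name and found by mapping the Ensembl identifiers of the raw count table to mouse gene symbols. All 10 of 10 were present among 45232 identifiers, and all 10 passed the filter on low counts that left 17834 genes to test. The libraries held RNA from CD45.2+ LSK cells (lineage-negative, Sca-1-positive, c-Kit-positive), the fraction of marrow that contains hematopoietic stem cells and early multipotent progenitors.

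RNA-seq was available for 5 groups of 3 libraries on a C57BL/6 background. In 4 of these groups the cells carried both the Idh2 R140Q and the Jak2 V617F allele. These conditional alleles were switched on by injection of polyI:polyC, and the cells had been transplanted in competition with congenic CD45.1 cells into lethally irradiated CD45.1 hosts. The hosts received vehicle, AG221 (an inhibitor of mutant IDH2, 40 mg/kg), ruxolitinib (a JAK1 and JAK2 inhibitor, 60 mg/kg) or both drugs by gavage for 21 to 28 days, with the last dose about 1.5 hours before sacrifice. The remaining group was wild type (WT), and the labels do not say whether these cells came from transplanted hosts. Neither do they say whether the 3 libraries of a group came from separate mice or from pools, so the p-values measure only the spread between these libraries. Total counts ran from 18836625 to 32174287 per library with a median of 25545779, and 3 counts corresponded to between 0.0957 and 0.157 CPM (counts scaled to a common library total after TMM normalization), an allowance for counting error only.

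NRF2, the protein product of Nfe2l2, is a transcription factor that the adaptor KEAP1 normally holds in the cytoplasm and delivers for degradation. When electrophiles or oxidants modify KEAP1, NRF2 accumulates, pairs with small MAF proteins and binds antioxidant response elements in the promoters of genes for glutathione synthesis, thioredoxin recycling, quinone reduction and heme breakdown. BACH1, a heme-binding repressor, competes for many of the same elements. Ferritin, built from the heavy chain FTH1 and the light chain FTL1, stores the iron that heme breakdown releases, and its synthesis is regulated to a large extent by iron at the level of translation. A transcript level therefore says little about NRF2 or ferritin protein.

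The sequence pattern through which NRF2 binds was searched for in the promoters of the members, to show which of them carry it close to their start. RefSeq promoters of GRCm38.p6, running from 250 bases before to 50 bases after each start, were matched for 8 of 10 members. Hmox1 and Gclc were not among them. The core of the antioxidant response element was searched on both strands as TGACNNNGC and as TGAGNNNGC. The first was present in 12.4% and the second in 17.6% of 32851 promoters, and either was present in 27.8%. Of the 8 members, with 11 promoters among them, 5 carried at least 1 match in any promoter: Nfe2l2, Gclm, Txnrd1, Prdx1 and Srxn1. This counts genes, whereas the percentages count promoters, so they are not in the same unit. The stretches around the 6 matches that lie before a start are printed below from 5′ to 3′ on the strand of the gene, with the matched bases in capitals. Where the match lies on the other strand, the capitals read as its reverse complement.
Nfe2l2, -240, chr2:75704875-75704913, minus strand: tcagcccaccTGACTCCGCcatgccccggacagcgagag
Gclm, -134, chr3:122245403-122245451, plus strand: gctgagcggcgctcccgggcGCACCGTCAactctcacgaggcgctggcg
Txnrd1, -92, chr10:82859094-82859142, plus strand: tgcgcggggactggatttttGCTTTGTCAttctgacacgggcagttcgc
Prdx1, -133, chr4:116685446-116685494, plus strand: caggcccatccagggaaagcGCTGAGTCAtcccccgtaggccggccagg
Srxn1, -158, chr2:152105346-152105394, plus strand: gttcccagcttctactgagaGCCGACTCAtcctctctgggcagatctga
Srxn1, -45, chr2:152105459-152105507, plus strand: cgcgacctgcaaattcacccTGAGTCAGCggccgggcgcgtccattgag

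The number after each name is the distance in bases of the match from the RefSeq start. In Prdx1 at -133 and in Srxn1 at -45 the match overlaps the letters TGAGTCA, the pattern of the AP-1 family of FOS and JUN proteins, which was present in 5.202% of all promoters. These are matches of letters and were not measured as binding.

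Levels differed widely between the members, and are compared here per kilobase of exon, counted over all annotated exons of a gene. In WT cells the ferritin chains were highest on this scale. Fth1 had 331 ± 55.3 CPM per kilobase and Ftl1 326 ± 37.7 (mean ± SD, n = 3), which did not differ beyond their spread. Prdx1, an abundant peroxiredoxin that reduces hydrogen peroxide, followed at 143 ± 23.7 CPM per kilobase. Txnrd1 stood at 39.4 ± 1.89 and Nfe2l2 itself at 33.8 ± 1.35 CPM per kilobase. The other members formed a low group whose ranges ran into each other. Here Nqo1 had 9.35 ± 0.159 CPM per kilobase, Srxn1 8.54 ± 0.779, Hmox1 7.06 ± 2.70, Gclm 7.04 ± 2.95 and Gclc 5.88 ± 2.36. These ranks depend on the length used, which was 3469 bases for Fth1 and 1340 bases for Ftl1. In CPM, Fth1 stood at 1149 ± 192, above Ftl1 at 437 ± 50.5 and Prdx1 at 435 ± 72.0 in WT.

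**Figure D1:**
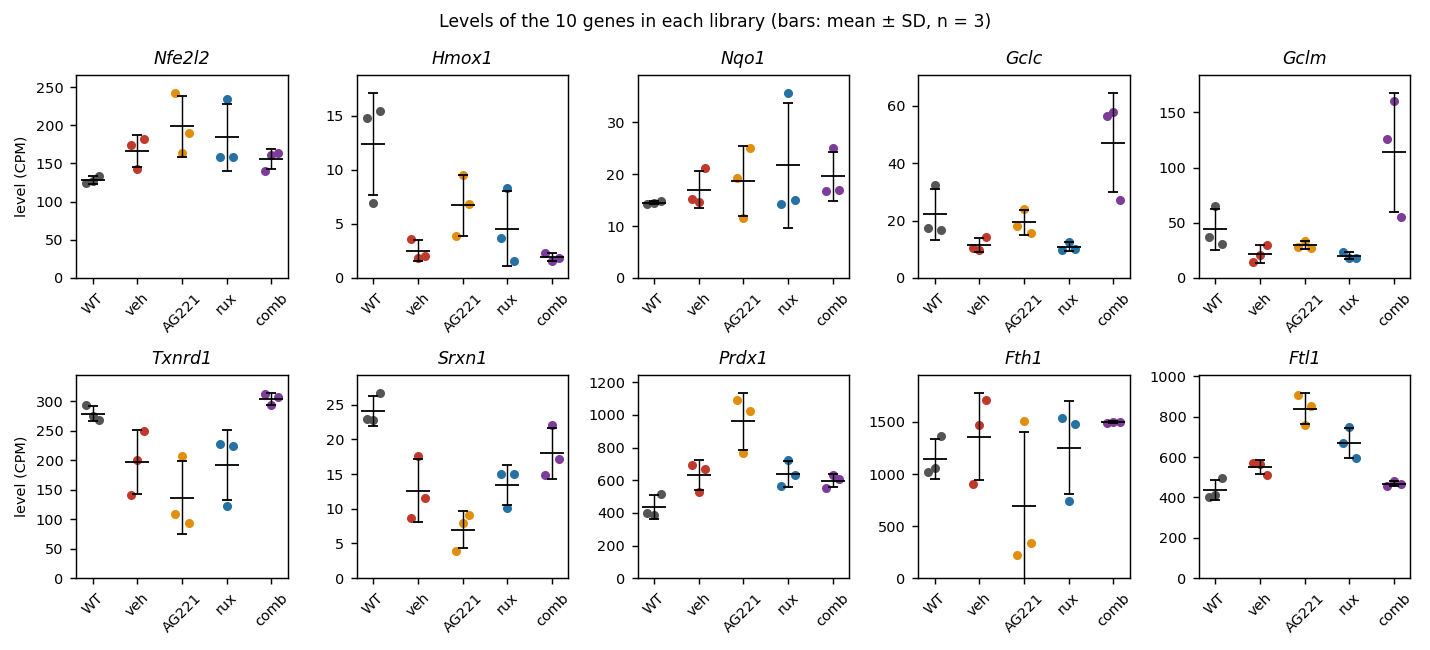
Level of each member in every library on a linear axis of CPM that starts at 0, with 3 points per group (WT, vehicle, AG221, ruxolitinib, combined) and the mean ± SD as a black bar, which for Fth1 under AG221 reaches below the axis. Gclc and Gclm stand highest in the combined group, Hmox1 and Srxn1 in WT, and Prdx1 and Ftl1 under AG221.

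To ask what the disease state and the drugs did to these genes, each pair of groups was compared with edgeR across all 17834 genes, and a gene was called at an adjusted p under 0.05. In vehicle-treated mutant cells 6 of 10 members differed from WT, while 33.3% of all genes did. Of these, 4 were lower (17.9% of all genes were) and 2 were higher (15.4% of all genes were). After combined treatment 2 of 10 members rose above vehicle, Gclc and Gclm, beside 12.5% of all genes called in either direction and 8.28% called higher. With AG221 alone 1 member was called, Ftl1, beside 0.987% of all genes, and with ruxolitinib alone 0 of 10 were, beside 0.0168% of all genes. A member that was not called may still have changed. Hmox1, Gclc and Prdx1 were higher with AG221 than with vehicle without overlap of the libraries, but were not called. Under ruxolitinib 1 member, Ftl1, had an unadjusted p under 0.05 in edgeR, beside 813 of 17834 genes. Under AG221 this held for 5 members beside 4498 genes, and under combined treatment for 2 beside 4715. For ruxolitinib DESeq2 also called 0 members, with 51 of all genes called. Vehicle libraries served as controls in all 3 drug comparisons, so these comparisons are not independent of each other.

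**Figure D2:**
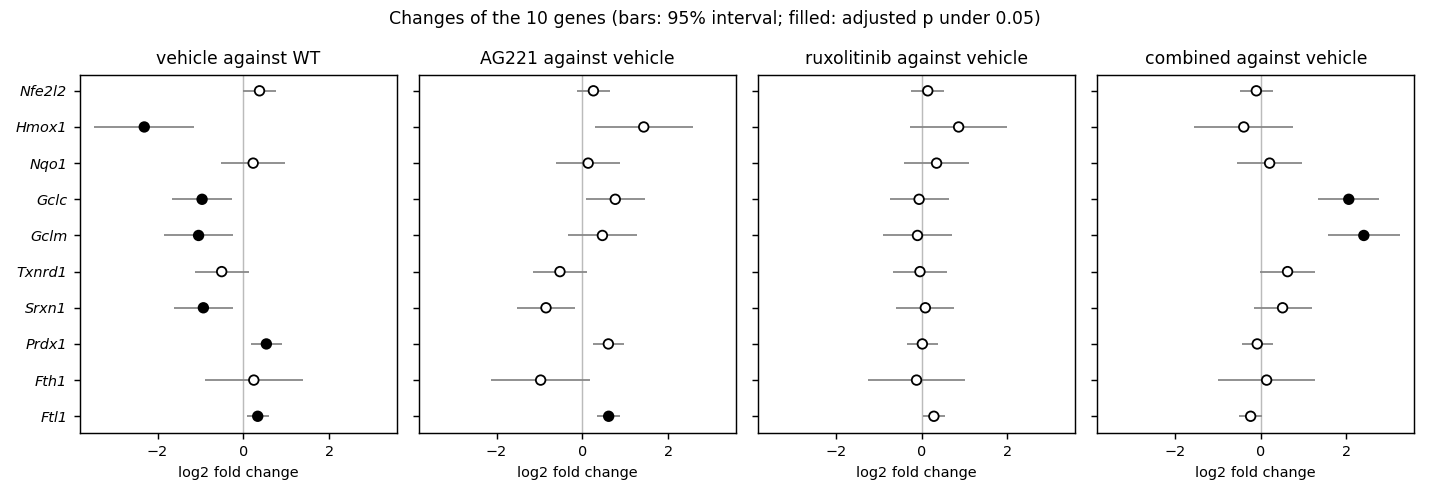
Log2 fold change of each member in 4 comparisons with its 95% interval from the edgeR fit, where filled points have an adjusted p under 0.05. In the last panel Gclc at 2.05 and Gclm at 2.40 stand apart from the other members, and in the panel for ruxolitinib every point is open.

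Some libraries differed in ways that touch these results. The level of the 20% of genes richest in GC relative to the 20% poorest in GC was lowest in AG221 A8 (-0.77 on the log2 scale), AG221 A10 (-0.50) and ruxolitinib A16 (-0.25), while the other 12 libraries lay between -0.075 and 0.28. Vehicle, AG221 and ruxolitinib replicates have names that begin with A, and combined and WT replicates have names that begin with B, so any difference that follows this letter cannot be told apart from the groups. Immediate early genes, which are induced within minutes by signalling or handling, summed to between 696 and 1269 CPM in combined and between 761 and 1084 CPM in WT libraries, against 6692 to 14963 CPM with vehicle, 3835 to 5562 CPM with AG221 and 4234 to 9204 CPM with ruxolitinib. Kit, the c-Kit receptor, was at 740 CPM or more in every library. Ly6a, which encodes Sca-1, varied more, from 13.1 CPM in vehicle A4 to 166 CPM in vehicle A1, with 59.9 to 81.0 CPM in WT. Sums over 9 stem and progenitor markers, these genes among them, were higher in WT (3741 to 4076 CPM) than in the 4 mutant groups (1860 to 3103 CPM). In bulk RNA, fewer cells of a type and less RNA per cell cannot be told apart.

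Gclc and Gclm encode the catalytic and the modifier subunit of glutamate-cysteine ligase, the rate-limiting enzyme of glutathione synthesis. Gclc (ENSMUSG00000032350) lies on chromosome 9 at 77754535 to 77794485 and Gclm (ENSMUSG00000028124) on chromosome 3 at 122245557 to 122270732 of GRCm38. In WT libraries Gclc stood at 17.2, 32.4 and 16.8 CPM, and with vehicle at 10.4, 9.60 and 14.1 CPM. AG221 libraries had 18.2, 24.1 and 15.6 CPM, and ruxolitinib libraries 9.89, 12.6 and 10.2 CPM. After combined treatment the values were 56.6, 57.7 and 27.2 CPM. All 3 combined libraries were thus above every library treated with vehicle or a single drug, and the lowest of them, B26, was below WT B30.

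The modifier subunit followed the same order. Gclm measured 36.7, 65.5 and 30.7 CPM in WT, and 14.02, 20.4 and 30.1 CPM with vehicle. With AG221 it measured 28.3, 33.4 and 27.2 CPM, with ruxolitinib 23.8, 18.2 and 18.3 CPM, and with both drugs 126, 161 and 55.0 CPM. The combined libraries again lay above all libraries with vehicle or 1 drug, with B26 lowest and below WT B30. Across the 15 libraries the log2 levels of both subunits had a Pearson r of 0.96, a description over libraries that share groups and depth, and the highest r of any pair of members.

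Relative to vehicle, combined treatment raised Gclc 4.15-fold (log2 2.05, SE 0.329, adjusted p = 0.00265) and Gclm 5.29-fold (log2 2.40, SE 0.392, adjusted p = 0.00274). Both calls held in each of the 6 fits that left out 1 vehicle or combined library, with log2 changes of 1.88 to 2.33 for Gclc and of 2.07 to 2.73 for Gclm. Combined treatment also exceeded each drug alone. Against ruxolitinib the log2 difference was 2.11 for Gclc (SE 0.330, adjusted p = 0.00194) and 2.499 for Gclm (SE 0.393, adjusted p = 0.00199), and 12.4% of all genes were called in that comparison. Against AG221 it was 1.29 for Gclc (SE 0.321, adjusted p = 0.0097) and 1.94 for Gclm (SE 0.385, adjusted p = 0.00382), with 33.2% of all genes called.

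Vehicle-treated mutant cells held less of both transcripts than WT cells. The log2 difference was -0.96 for Gclc (SE 0.321, adjusted p = 0.0355) and -1.04 for Gclm (SE 0.377, adjusted p = 0.0475). These calls were close to the threshold: without vehicle A1 or WT B30, for example, neither passed, and the smallest differences over the 6 fits that left out 1 library were -0.58 and -0.65. Combined treatment took both genes to values above the WT mean without passing the test, at a log2 difference from WT of 1.09 for Gclc (SE 0.320, adjusted p = 0.0700) and 1.36 for Gclm (SE 0.378, adjusted p = 0.0622), where 3.25% of all genes were called. The groups overlapped through B26 and B30. With DESeq2 in place of edgeR both differences from WT passed, with adjusted p-values of 0.0159 and 0.00949.

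Whether both drugs together gave more than the sum of their separate effects was asked with the departure, which is the log2 change under combined treatment minus the log2 changes under AG221 and under ruxolitinib, all against vehicle. Of all genes 8.42% departed from the sum, and 3 of 10 members did. For Gclm the departure was 2.03 (SE 0.534, adjusted p = 0.0414), above the sum, and for Gclc it was 1.35 (SE 0.452, adjusted p = 0.0700), which did not pass. The call for Gclm was lost in 8 of 12 fits that left out 1 library, with values from 1.71 to 2.37. The summed immediate early genes given above also set the combined libraries apart from the other mutant groups, but low where Gclc and Gclm were high. Not every gene of that list did so. Jun was at 51.7 and 65.8 CPM in AG221 A8 and A10, and at 100 to 291 CPM in combined libraries. The part of the immediate early genes in the result was not tested. Reads from an antisense gene, Gm17494, that lies under 4.71% of the exons of Gclm could not be separated without a stated strand setting, but it reached no more than 2.36 CPM.

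**Figure D3:**
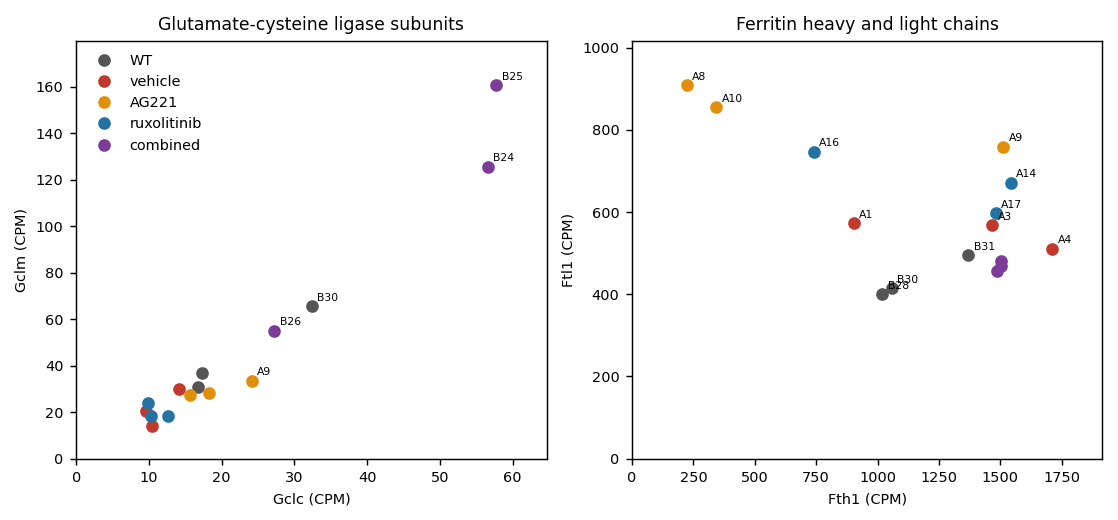
Levels in CPM of the subunits of glutamate-cysteine ligase (left) and of the ferritin chains (right), 1 point per library, coloured by group. Gclc and Gclm fall along 1 line with combined B24 and B25 at its upper end, whereas AG221 A8 and A10 combine the lowest Fth1 with the highest Ftl1.

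Hmox1, on chromosome 8 at 75093621 to 75100589, encodes heme oxygenase 1, which breaks heme down to biliverdin, carbon monoxide and iron. The WT libraries had 14.7, 6.91 and 15.4 CPM. Vehicle libraries had 3.61, 1.85 and 2.01 CPM, and combined libraries 2.30, 1.56 and 1.85 CPM. AG221 libraries had 3.85, 9.48 and 6.80 CPM, from just above vehicle into the range of WT, and ruxolitinib libraries were spread out at 3.72, 8.33 and 1.57 CPM. Vehicle and combined libraries did not overlap with WT.

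Hmox1 was 2.31 lower on the log2 scale in vehicle-treated mutant cells than in WT (log2 difference -2.31, SE 0.541, adjusted p = 0.00958), and this call held in all 6 fits without 1 library. It was the only member that combined treatment left different from WT (log2 difference -2.70, SE 0.554, adjusted p = 0.0237), although only 2 of 6 fits without 1 library kept that call. Against AG221, combined treatment gave less Hmox1 (log2 difference -1.82, SE 0.543, adjusted p = 0.0213). The rise with AG221 over vehicle was 1.43 on the log2 scale (SE 0.531, adjusted p = 0.128), and AG221 and vehicle libraries did not overlap. DESeq2 called it at an adjusted p of 0.0382. The departure from the sum of both drugs was -2.69 (SE 0.756, adjusted p = 0.0474), and it passed in 2 of 12 fits without 1 library.

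Macrophages are rich in heme oxygenase 1, so their markers are given beside Hmox1. Summed over 11 markers they reached 362 to 405 CPM in WT, 403 to 578 CPM with vehicle, 618 to 776 CPM with AG221, 487 to 828 CPM with ruxolitinib and 331 to 467 CPM after combined treatment. Of the 11 markers 2 were higher (Cd68 and Csf1r) and 2 lower (Spic and Mrc1) with vehicle than in WT. None of the 11 was at 0 in any group, and Spic, a factor of heme-recycling macrophages, was at 5.01 to 5.49 CPM in WT and at 1.46 to 2.97 CPM with vehicle. B and plasma cell markers also set WT apart, with sums of 608 to 1300 CPM there against 67.7 to 157 CPM with vehicle. The part of either cell type in the Hmox1 result was not tested.

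Srxn1 and Txnrd1 encode sulfiredoxin, which repairs overoxidised peroxiredoxins, and thioredoxin reductase 1, which returns cytosolic thioredoxin to its reduced form. Srxn1 (chromosome 2, 152105516 to 152111376) had 22.9, 22.7 and 26.6 CPM in WT, and 8.68, 17.6 and 11.5 CPM with vehicle. It had 3.93, 7.97 and 9.09 CPM with AG221, 15.0, 10.2 and 15.1 CPM with ruxolitinib, and 14.8, 22.0 and 17.1 CPM with both drugs. Every treated or vehicle library was below every WT library, and the AG221 libraries were lowest, with A10 alone reaching into the range of vehicle.

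Srxn1 fell below WT with vehicle (log2 difference -0.93, SE 0.316, adjusted p = 0.0376) and with AG221 (-1.78, SE 0.324, adjusted p = 0.00107), a comparison in which 50.7% of all genes were called. The call for vehicle held only in the fit without vehicle A3 and was lost in the 5 fits without another library, with values from -1.23 to -0.70 over these 6 fits. With combined treatment it was -0.42 from WT (SE 0.314, adjusted p = 0.420). The change against vehicle was -0.85 under AG221 (SE 0.319, adjusted p = 0.130) and 0.51 under combined treatment (SE 0.315, adjusted p = 0.334), and combined treatment exceeded AG221 by 1.36 (SE 0.322, adjusted p = 0.00762).

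Txnrd1 (chromosome 10, 82833951 to 82897712) measured 294, 276 and 268 CPM in WT, 141, 201 and 249 CPM with vehicle, and 109, 208 and 93.8 CPM with AG221. Ruxolitinib libraries had 228, 123 and 225 CPM and combined libraries 312, 293 and 307 CPM. Of the combined libraries only B25 fell within the range of WT, the others lay above it, and all libraries of the remaining groups lay below both. The difference from WT was -0.51 with vehicle (SE 0.294, adjusted p = 0.193) and -1.03 with AG221 (SE 0.296, adjusted p = 0.0121). The rise with combined treatment over vehicle was 0.63 (SE 0.294, adjusted p = 0.193), and over AG221 it was 1.15 (SE 0.297, adjusted p = 0.0113).

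Prdx1 (chromosome 4, 116685544 to 116700822) moved the other way. It stood at 401, 387 and 518 CPM in WT and at 696, 527 and 671 CPM with vehicle. AG221 gave 1092, 764 and 1022 CPM, ruxolitinib 563, 724 and 632 CPM, and the combination 555, 632 and 604 CPM. All libraries of the mutant groups were above all WT libraries, and all AG221 libraries were above all others. Prdx1 was higher than WT with vehicle (log2 difference 0.54, SE 0.168, adjusted p = 0.0280), with AG221 (1.14, SE 0.169, adjusted p = 0.000366) and with ruxolitinib (0.55, SE 0.168, adjusted p = 0.0252), where 32.3% of all genes were called. The call for vehicle held without vehicle A3 or WT B31 and was lost in the 4 fits without another library, with values from 0.46 to 0.70 over these 6 fits. After combined treatment it was 0.46 above WT (SE 0.168, adjusted p = 0.118). The rise from vehicle to AG221 was 0.60 (SE 0.168, adjusted p = 0.0718), which DESeq2 called at 0.0133. Combined treatment held less Prdx1 than AG221 (-0.68, SE 0.168, adjusted p = 0.00907).

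The ferritin chains did not move together. Ftl1 (chromosome 7, 45457944 to 45459884), the light chain, measured 401, 415 and 494 CPM in WT and 573, 568 and 511 CPM with vehicle. It rose to 908, 760 and 855 CPM with AG221, stood at 671, 747 and 597 CPM with ruxolitinib, and was at 456, 481 and 468 CPM with both drugs. The AG221 libraries were above all others, the combined libraries lay within the range of WT, and ruxolitinib libraries were above vehicle.

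Ftl1 was 1.53-fold higher with AG221 than with vehicle (log2 difference 0.61, SE 0.122, adjusted p = 0.0458). Over the 6 fits without 1 library the size stayed between 0.55 and 0.67, but the call held only in the fit without AG221 A9. It was 0.33 higher with vehicle than in WT (SE 0.122, adjusted p = 0.0483), a call that was lost under 6 of the alternative settings and in 5 of 6 fits without 1 library. With ruxolitinib it was 0.62 above WT (SE 0.122, adjusted p = 0.00449) and with AG221 0.95 above WT (SE 0.122, adjusted p = 0.000185). Combined treatment held less Ftl1 than AG221 (-0.84, SE 0.122, adjusted p = 0.00159) and than ruxolitinib (-0.52, SE 0.122, adjusted p = 0.0130). Its change against vehicle was -0.23 (SE 0.121, adjusted p = 0.243).

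For Ftl1 the departure from the sum of both drugs was -1.13 (SE 0.172, adjusted p = 0.00881), and this call held in all 12 fits that left out 1 library. It did not pass without AG221 A8, AG221 A10 and ruxolitinib A16 together, where the departure was -0.91 (adjusted p = 0.171). Erythroid cells are rich in ferritin and heme enzymes, and 11 erythroid markers summed to 322 to 458 CPM in WT, 762 to 1532 CPM with vehicle, 1363 to 1981 CPM with AG221, 1044 to 4068 CPM with ruxolitinib and 681 to 1763 CPM after combined treatment. Neutrophil markers summed to 4338 to 5255 CPM with AG221, 2653 to 4897 CPM with ruxolitinib, 1198 to 3343 CPM with vehicle, 942 to 1306 CPM with both drugs and 728 to 908 CPM in WT, and most of each AG221 sum was Elane (3680 to 4822 CPM), which granulocyte progenitors also express. The highest erythroid sum with ruxolitinib came from A16, where Car1 was 2410 CPM beside 726 and 722 CPM in A14 and A17. No erythroid marker was at 0 in a library, and Ly6g, a defining neutrophil marker, did not exceed 2.26 CPM. The part of either cell type in the Ftl1 result was not tested. A gene on the opposite strand, Gm10252, which was not analysed here, lies under 26.5% of the Ftl1 exons, and processed copies of Ftl1 were counted at up to 22.3 CPM (Ftl2-ps).

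Fth1 (chromosome 19, 9980598 to 9985098), the heavy chain, spread widely within groups. It measured 1019, 1059 and 1369 CPM in WT, 903, 1468 and 1711 CPM with vehicle and 1487, 1504 and 1504 CPM with both drugs. AG221 A8 and A10 had 223 and 342 CPM, whereas AG221 A9 had 1512 CPM. Ruxolitinib A16, at 740 CPM, was likewise below A14 and A17, at 1543 and 1481 CPM. The 3 low libraries are those in which GC-rich genes as a class were low.

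The change of Fth1 from vehicle to AG221 was -0.97 (SE 0.535, adjusted p = 0.267). It was -2.28 (adjusted p = 0.000698) without AG221 A9, and 0.13 (adjusted p = 0.953) without AG221 A8, AG221 A10 and ruxolitinib A16, which left AG221 with 1 library assumed to vary like the other groups. Offsets fitted to GC content per library gave -1.004 (adjusted p = 0.2645). Fth1 passed no test between any of the groups. Txnrd1 was also lowest in the libraries low in GC-rich genes, and its change under AG221 moved from -0.52 to 0.05 without them. GC content of the longest annotated transcript is 49.95% in Fth1, 49.7% in Txnrd1 and 58.1% in Ftl1, which was highest in AG221 A8 and A10.

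**Figure D4:**
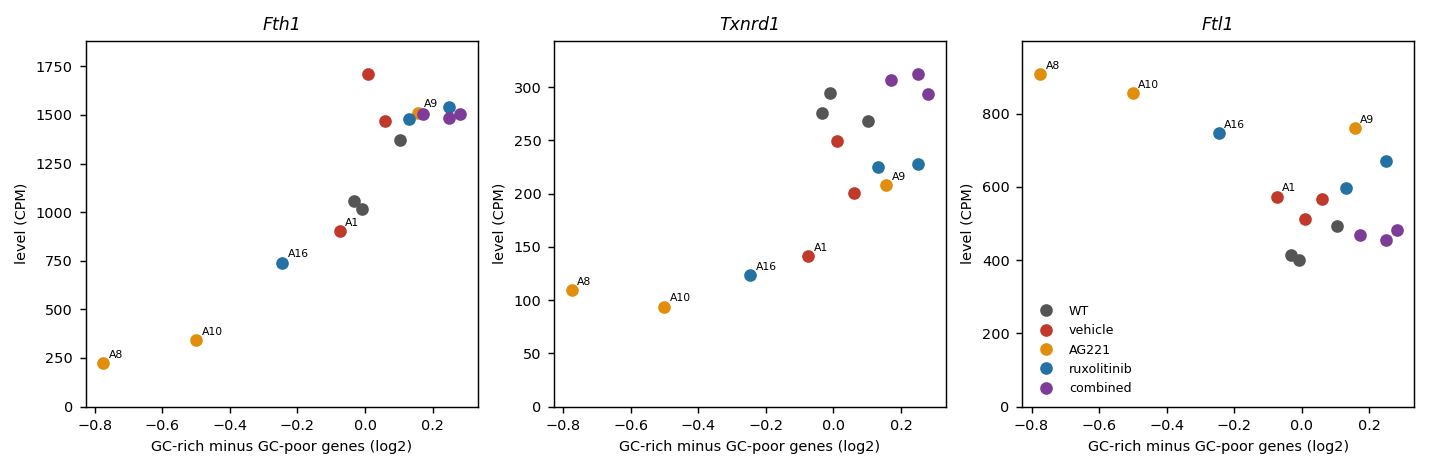
Level in CPM of Fth1, Txnrd1 and Ftl1 in each library against the log2 level of the 20% of genes richest in GC minus that of the 20% poorest in GC, coloured by group. AG221 A8, AG221 A10 and ruxolitinib A16, at the left, have low Fth1 and Txnrd1, and AG221 A9 lies with the other groups.

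Nqo1 and Nfe2l2 were called in no comparison of a drug with vehicle. Nqo1 (chromosome 8, 107388225 to 107403206) encodes a quinone reductase that is widely used as a reporter of NRF2 activity. It had 14.3, 14.5 and 14.8 CPM in WT, 15.2, 14.6 and 21.2 CPM with vehicle, and 19.3, 11.6 and 24.99 CPM with AG221. Ruxolitinib gave 14.3, 35.6 and 15.1 CPM and the combination 16.8, 25.1 and 17.02 CPM. The groups overlapped except for combined against WT, and Nqo1 passed no test. The change with combined treatment against vehicle was 0.21 on the log2 scale, with a 95% interval from -0.54 to 0.96, so a rise of the size seen for Gclc or Gclm lies outside it.

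Nfe2l2 (chromosome 2, 75675513 to 75704641) stood at 124, 127 and 134 CPM in WT and at 175, 142 and 182 CPM with vehicle. AG221 libraries had 242, 164 and 190 CPM, ruxolitinib libraries 159, 235 and 159 CPM, and combined libraries 140, 161 and 164 CPM. Every library of the mutant groups was above every WT library. The difference from WT passed with AG221 (0.63, SE 0.179, adjusted p = 0.0111) and ruxolitinib (0.52, SE 0.179, adjusted p = 0.0404). It did not pass with vehicle (0.38, SE 0.178, adjusted p = 0.114) or the combination (0.28, SE 0.178, adjusted p = 0.348). Combined treatment changed it by -0.10 against vehicle, with a 95% interval from -0.48 to 0.28. The genes most like Nfe2l2 in log2 CPM over the 15 libraries were Ndufs1 (Pearson r 0.975), Cwc22 (0.975), Dld (0.971), Psmd2 (0.971) and Ecd (0.970), none of them a member.

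The other genes of the pathway were taken from fixed lists, whose counts for vehicle against WT stand beside the 33.3% of all genes called there (15.4% higher and 17.9% lower). Of 11 regulators of NRF2 activity, including Keap1, Bach1 and the small MAF genes, 0 passed edgeR's test in vehicle against WT or in any treatment against vehicle. Keap1, the repressor that marks NRF2 for degradation, ranged from 32.3 to 67.7 CPM with vehicle and from 81.1 to 100 CPM with both drugs (log2 difference 0.75, SE 0.486, adjusted p = 0.361). It was lowest in AG221 A8 at 10.9 CPM and AG221 A10 at 14.7 CPM, and its change against vehicle was -1.19 under AG221 (adjusted p = 0.158). Bach1 ranged from 17.6 to 22.6 CPM with vehicle and from 14.2 to 20.7 CPM after combined treatment (log2 difference -0.21, SE 0.217, adjusted p = 0.596). Nfe2, a relative of Nfe2l2 that is active in megakaryocytes, departed from the sum of both drugs by 1.03 (SE 0.284, adjusted p = 0.0449), a call lost in 12 of 20 alternative fits.

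Of 13 other glutathione genes, 4 were higher and 0 lower with vehicle than in WT: the glutathione peroxidases Gpx1 (0.73) and Gpx4 (0.57) and the transferases Gstm1 (0.80) and Gsto1 (0.64, all log2). The calls for Gstm1 and Gpx4 were lost in 7 and 3 of 13 alternative fits, and those for Gpx1 and Gsto1 held in all 13. The median log2 difference of the list was 0.49, beside -0.091 over all genes, whereas Gclc and Gclm fell. Summed over the list, WT libraries had 1754 to 2181 CPM, vehicle 2888 to 3207 CPM, AG221 3988 to 4283 CPM, ruxolitinib 3205 to 3452 CPM and combined 2423 to 2785 CPM. Neighbours in the order WT, combined, vehicle, ruxolitinib and AG221 did not overlap, except vehicle and ruxolitinib. Most of each sum was Gpx1 (1104 to 1460 CPM in WT, 2462 to 2806 CPM with AG221), so the order mainly describes this gene. Others differed: by group means Gsr was highest with both drugs (135 CPM) and Gsta4 in WT (9.25 CPM). Under combined treatment 0 of 13 were called against vehicle, with a median of -0.19. Gpx1, Gpx3, Gstm1 and Mgst1 departed from the sum of both drugs, by -0.71, -2.31, -2.02 and -1.75. These calls were lost in 13, 8, 3 and 9 of 20 alternative fits.

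The thioredoxin and peroxiredoxin list held 12 further genes, of which 3 were higher and 2 lower with vehicle than in WT. Txn1, thioredoxin itself, rose by 0.67, the mitochondrial peroxiredoxin Prdx3 by 0.68 and Prdx6 by 0.64. Txnip, which binds and inhibits thioredoxin, decreased by 0.73 and Txnrd3, a thioredoxin-glutathione reductase, by 1.93. The calls for Prdx3, Txnip and Txnrd3 were lost in 6, 5 and 2 of 13 alternative fits, and those for Txn1 and Prdx6 held in all 13. Txnrd3 was the 1 gene of this list called under combined treatment against vehicle (1.89, SE 0.515, adjusted p = 0.0285), and it departed from the sum of both drugs by 2.52. These calls were lost in 5 of 13 and in 11 of 20 alternative fits. Glrx, a glutaredoxin, was higher with AG221 than with vehicle (0.64, SE 0.138, adjusted p = 0.0471). That call was lost in 9 of 15 alternative fits. Txn1, Prdx6 and Glrx departed from the sum by -0.78, -0.69 and -0.92, calls lost in 13, 15 and 9 of 20 fits.

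NADPH feeds both the glutathione and the thioredoxin system. Of 5 genes that supply it, 4 were higher with vehicle than in WT, all of the pentose phosphate pathway: G6pdx (0.88), Pgd (0.69), Tkt (0.69) and Taldo1 (0.60). The call for Taldo1 was lost in 4 of 13 alternative fits, and those for G6pdx, Pgd and Tkt held in all 13. Me1, the cytosolic malic enzyme, was lower (-2.56), at low counts of 10, 22 and 4 with vehicle and 59, 106 and 52 in WT. Pgd, 6-phosphogluconate dehydrogenase, rose further with AG221 (0.79, SE 0.144, adjusted p = 0.0458) and was lower than vehicle with both drugs (-0.53, SE 0.144, adjusted p = 0.0282). Its departure from the sum, -1.62 (SE 0.204, adjusted p = 0.00449), held in all 20 alternative fits, whereas its calls against vehicle were lost in 8 of 15 fits for AG221 and in 6 of 13 for combined treatment. G6pdx, Tkt and Taldo1 departed in the same direction by -1.12, -0.81 and -0.95, and each of these calls was lost in 10 of 20 fits. Of 3 genes against superoxide and peroxide, the mitochondrial dismutase Sod2 was higher with vehicle than in WT (0.68), a call lost in 8 of 13 alternative fits.

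Of 17 other genes of heme and iron handling, 5 were higher and 0 lower with vehicle than in WT. Tfrc, the transferrin receptor, rose by 2.04, Alas1, the first enzyme of heme synthesis, by 1.26, and the iron reductase Steap3 by 1.29. The iron transporter Slc11a2 rose by 1.23 and Ncoa4, which delivers ferritin to lysosomes, by 0.51. Calls for Steap3, Slc11a2 and Ncoa4 were lost in 3, 3 and 2 of 13 alternative fits, and those for Tfrc and Alas1 held in all 13. Combined treatment lowered Tfrc (-1.49, SE 0.349, adjusted p = 0.0134) and Alas1 (-0.75, SE 0.226, adjusted p = 0.0445) against vehicle, and Alas1 departed from the sum of both drugs by -2.11. The calls against vehicle were lost in 1 of 13 alternative fits for Tfrc and in 5 of 13 for Alas1, and the departure of Alas1 in 1 of 20. The erythroid sums given beside Ftl1 also separate WT from the mutant groups. Most of each sum was Car1, at 202 to 301 CPM in WT and 472 to 1326 CPM after combined treatment. Of the 11 erythroid markers, 4 were called for vehicle against WT, beside 33.3% of all genes. For combined treatment against WT 0 of 11 were called, beside 3.25% of all genes. The part of erythroid cells in these changes was not tested. Of 6 other NRF2 targets, Abcc1, an exporter of glutathione conjugates, was higher with vehicle than in WT (0.43). It was lower with both drugs than with vehicle (-0.55), and these calls were lost in 8 and 6 of 13 alternative fits. The hydrolase Ephx1 (-1.86) and the oxidoreductase Aox1 (-3.18) were lower with vehicle than in WT. Aox1 was near the floor, with 8, 6 and 1 counts with vehicle and 43, 75 and 26 counts in WT. It passed the filter on low counts only through WT, so no weight is put on its call.

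**Figure D5:**
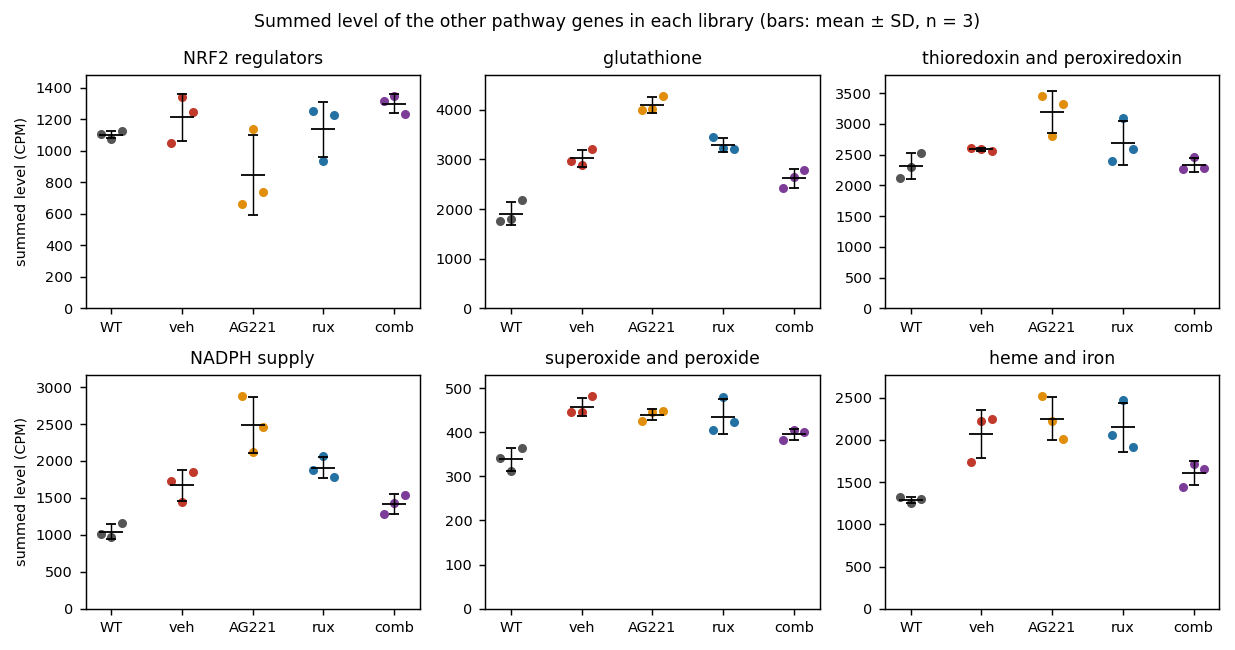
Summed level in CPM of 6 lists of other pathway genes in each library on linear axes that start at 0, with the mean ± SD of each group as a black bar. The glutathione sum rises from 1754 to 2181 CPM in WT to 3988 to 4283 CPM with AG221, and is 2423 to 2785 CPM with both drugs. Most of this sum is Gpx1.

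Set side by side, the members fell into separate patterns over the 5 groups. Gclc and Gclm were low with vehicle or ruxolitinib and highest with both drugs. Srxn1 was lower with AG221 and with vehicle than in WT. Its call for vehicle was lost in most fits without 1 library, and its call for AG221 against WT was not refitted. Txnrd1 was lower with AG221 than in WT. In AG221 A8 and A10, which were low in GC-rich genes, Txnrd1 had 109 and 93.8 CPM, and in A9 208 CPM. Prdx1 and Ftl1 were higher than WT with AG221, ruxolitinib or vehicle. Their calls for vehicle were lost in most fits without 1 library, and those for AG221 or ruxolitinib against WT were not refitted. The highest levels of Prdx1 and Ftl1 were under AG221, and neither passed the test against WT after combined treatment. The median log2 change of the 10 members was -0.14 for vehicle against WT (all genes -0.091), 0.36 for AG221 (-0.0065), 0.053 for ruxolitinib (0.012) and 0.17 for combined treatment (0.037). Combined treatment differed from AG221 in 7 of 10 members, 4 higher (Gclc, Gclm, Txnrd1 and Srxn1) and 3 lower (Hmox1, Prdx1 and Ftl1). Of all genes, 33.2% were called in that comparison, 18.9% higher and 14.3% lower.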

How the data were processed

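RNA from sorted LSK cells was amplified with the SMARTer kit, and the authors aligned reads with STAR 2.5.1a to mm10 (GRCm38). Per the labels, they used DESeq2 1.6.3; the annotation release and the strand setting of the counting are not given in the sources used here. The deposited raw counts per Ensembl gene were used, and no deposited normalized value entered. Identifiers were matched to GENCODE M21 symbols (44585 of 45232). edgeR 4.0.16 (R 4.3.3) was run with TMM normalization, filterByExpr and the quasi-likelihood test on all 15 libraries without covariates. P-values were adjusted by Benjamini-Hochberg over 17834 genes, and genes were called under 0.05. The procedure was tested on simulated data. CPM used TMM library sizes, and correlations used log2 CPM with a prior count of 2. The members and lists were chosen with earlier results of these data known. Named were all members, pathway genes called in vehicle against WT, a treatment against vehicle or the departure, Keap1, Bach1, and the 5 genes most correlated with Nfe2l2. Alternatives were DESeq2 1.42.0, RLE and upper quartile normalization, other count filters, GC offsets, the compared groups alone, and leaving out each library. Fits with libraries named A, and without the 3 libraries low in GC-rich genes, were chosen after seeing the data, as were fits repeated for pathway genes. Depth of 18836625 to 32174287 counts limits the precision of Hmox1 most.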

Additional observations from a re-analysis of the deposited data

Results flagged for a closer look

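For 3 members the effect of both drugs together differed from the sum of their separate effects by a test of that difference in edgeR: Hmox1 by -2.69 on the log2 scale (adjusted p = 0.0474), Gclm by 2.03 (adjusted p = 0.0414) and Ftl1 by -1.13 (adjusted p = 0.00881). Hmox1 rose by 1.43 with AG221 and by 0.86 with ruxolitinib against vehicle without passing either test, and changed by -0.39 with both. Gclm changed by 0.46, -0.09 and 2.40, and Ftl1 by 0.61, 0.29 and -0.23. All 3 comparisons use the same vehicle libraries, and the combined libraries alone among them have names that begin with B.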

How the results depend on the processing

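No paired analysis was possible because replicate names are not shared between groups. The count of 2 members called for combined treatment against vehicle was 2 under every alternative run, and ruxolitinib against vehicle gave 0 in each fit that left out 1 library. Leaving out 1 library at a time gave 1 to 5 members for vehicle against WT (1 without vehicle A1 or WT B30), 0 to 4 for AG221 against vehicle (4 without AG221 A9), 0 to 2 for combined against WT and 1 to 8 for the departure (8 without AG221 A9). Counts over all genes in these fits are not given here, so the 4 and 8 are not read as a result about the members. For AG221 against vehicle, DESeq2 called 3, upper quartile normalization 2, no filter 0, a minimum of 10 counts 2, the compared groups alone 0, libraries named A alone 0, and the fit without AG221 A8, AG221 A10 and ruxolitinib A16 0. For combined against WT, DESeq2 called 3 and no filter 3, beside 1854 and 858 of all genes, against 579 as reported. For the departure, DESeq2 called 7 and the compared groups alone 1, beside 3758 and 167 of all genes, against 1502 as reported. The causes were not tested. The calls over all genes moved as well: for AG221 against vehicle they were 176 as reported, 2373 with DESeq2, 738 with upper quartile normalization, 206 without a filter, 906 with the minimum of 10 counts and 0 for the compared groups alone. Upper quartile normalization shifted the median log2 change of all genes by -0.314 for the departure, -0.201 for combined against WT, 0.187 for AG221, -0.112 for combined against vehicle and -0.0901 for vehicle against WT. With it the share of all calls that were higher went from 46.3% to 26.7% for vehicle against WT, from 47.7% to 77.4% for AG221 (57.7% with RLE), from 50.3% to 15.9% for combined against WT and from 66.5% to 37.2% for the departure. Of the pathway calls that involve the library left out, 17 of 19 were lost without combined B24, 16 of 19 without combined B25, and 13 of 16 without AG221 A8 or A10. No called difference of a member reversed, but small ones that passed no test did. Against WT, the change of Txnrd1 and Ftl1 under combined treatment was -0.078 and -0.10 with upper quartile normalization, and -0.0016 and -0.021 with a minimum of 10 counts. Without AG221 A8, AG221 A10 and ruxolitinib A16, AG221 against vehicle gave -0.041 for Nfe2l2, -0.57 for Nqo1, 0.053 for Txnrd1 and 0.13 for Fth1, ruxolitinib gave -0.078 for Nfe2l2, -0.22 for Nqo1, 0.19 for Txnrd1, -0.088 for Prdx1 and 0.14 for Fth1, and the departure was 0.96 for Nqo1 and -0.17 for Fth1. Leaving out 1 library moved ruxolitinib against vehicle from -0.068 to 0.24 for Nfe2l2, -0.21 to 0.57 for Nqo1, -0.18 to 0.13 for Gclc, -0.33 to 0.22 for Gclm, -0.23 to 0.20 for Txnrd1, -0.12 to 0.41 for Srxn1, -0.099 to 0.099 for Prdx1 and -0.34 to 0.15 for Fth1. It moved Nqo1 from -0.095 to 0.37 for AG221, -0.012 to 0.39 for combined treatment and -0.51 to 0.23 for the departure, and Fth1 from -0.089 to 0.34 for combined treatment. Depth limits Hmox1, at 1.56 CPM in its lowest combined library, more than the other members.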
